A study of Homo sapiens with 54 samples.

Results

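The genes described here are 10 regulators of mRNA tails, namely TENT5A, TENT5B and TENT5C, ZFP36, ZFP36L1 and ZFP36L2, and BTG1, BTG2, BTG3 and TOB1. They were set by gene name from the 60676 genes listed for each library, with earlier results of these data known. Counts of members passing beside the share of all genes are therefore descriptions. All 10 passed the filter on low counts in each of the 4 experiments. They were measured by RNA-seq in hMSN-like cells, that is, cells resembling human medium spiny neurons of the striatum that were grown from H9 (WA09), an established human embryonic stem cell line, and 53 libraries of 18 conditions were analysed.

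TENT5 proteins are noncanonical poly(A) polymerases, which add adenosines to the tails of selected mRNAs and so prolong their life. The ZFP36 proteins act in the opposite direction: their CCCH zinc fingers bind AU-rich elements in the 3′ untranslated region (3′UTR) of an mRNA and bring in the CCR4-NOT complex, which removes the tail. BTG and TOB proteins bind the CAF1 deadenylase subunits of the same complex and are known as antiproliferative factors. ZFP36 and BTG2 were first found as immediate early genes, whose mRNAs rise within an hour of a stimulus, and in medium spiny neurons dopamine acting on D1-like receptors raises cAMP and induces such genes.

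In the dopamine experiments, cells received 1 mM or 1 µM dopamine as an acute dose on DIV45 (days in vitro) or as chronic daily doses that ended on DIV50, and RNA was taken 1 h later or a day (24 h) later. The control of each dose is labelled PBS, while the dopamine itself was dissolved with ascorbic acid. A time course gave 1 mM dopamine daily for 2, 3, 4 or 5 days with all RNA taken 1 h after the last dose on DIV50, and its control received ascorbic acid (AA control). In the agonist experiment, the D1-like receptor agonist SKF82958 and the D2-like receptor agonist quinpirole were each given at 50 µM beside a water control. The paper places agonist dosing on DIV45 with RNA taken 1 h later, but its methods do not name SKF82958. Groups held 3 libraries, except 5 Day with 2, and all came from a single cell line, and nothing says that the libraries came from separate differentiations, so p-values measure the spread between these libraries. Acute and chronic groups differ in day in vitro as well as in the number of doses, and the effects of these cannot be told apart. The same PBS libraries served the acute and the chronic groups of a dose, and their day in vitro is not given. Comparisons with PBS can thus include a difference in day and in vehicle, which cannot be told apart from dopamine.

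Exon reads per library ranged from 5755919 to 27702963, apart from Quinpirole replicate 1 with 137051. In that library 96.7% of the reads on genes were intronic, against 12.3% to 31.2% in the other 52, and ZFP36, TENT5B and BTG3 had 0 exon reads there. A library labelled 1 mM Acute 24 h, replicate 1, also stood apart: it held the highest TPM of its group for all 10 members. That trait comes from the members' own values, so counts of members without this library are descriptions. Its 14688981 exon reads and 12.5% intronic reads lay within the ranges of the other libraries of the 1 mM experiment. Results that rest on either library, or on the spread it adds to a fit, are given with and without it. The order of conditions by mean TPM and the correlations between genes are exceptions, given only with the Acute 24 h library. The labelled cell type was checked by markers: 5 of 5 pan-neuronal genes and 11 of 11 genes of striatal medium spiny neurons had a median of at least 1 TPM, but so did 6 of 6 genes of progenitors and astrocytes, whose summed level was 1312 to 3893 TPM per library. Of the 3 oligodendrocyte lineage genes 3 reached that level, of 4 mesenchymal and endothelial genes 2 (COL1A1 and COL3A1), of 4 leukocyte and microglia genes 1 (PTPRC) and of 2 pluripotency genes 0. The cultures were thus mixed, and in bulk RNA fewer cells of a type and less RNA per cell cannot be told apart.

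The TENT5 genes were the lowest of the members on the TPM scale, which is corrected for exon length. TENT5A (ENSG00000112773) lies at chr6:81491439-81752774 (GRCh38, minus strand), TENT5B (ENSG00000158246) at chr1:27005020-27012850 (minus strand) and TENT5C (ENSG00000183508) at chr1:117606048-117628389 (plus strand). Over the 52 libraries without Quinpirole replicate 1, the median was 4.76 TPM for TENT5A, 6.06 TPM for TENT5B and 2.88 TPM for TENT5C. TENT5B ranged from 0 to 40.8 TPM, the widest range of the 3 genes. Between 14.5% and 72.5% of the reads on TENT5A were intronic, so exon reads and all gene reads can give different values for this gene.

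Of the zinc finger genes, ZFP36 (ENSG00000128016) at chr19:39406847-39409412 (plus strand) is the best-known member, also called tristetraprolin, and had a median of 14.1 TPM with a range of 2.77 to 76.6. ZFP36L1 (ENSG00000185650) at chr14:68787660-68796253 (minus strand) and ZFP36L2 (ENSG00000152518) at chr2:43222402-43226606 (minus strand) were far higher, with medians of 122 and 104 TPM. From 65.7% to 86.7% of the ZFP36L2 reads mapped uniquely, so its level is less certain than that of ZFP36 and ZFP36L1, whose reads were all unique.

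BTG2 (ENSG00000159388), at chr1:203305491-203309602 (plus strand), had the highest median of the members, 123 TPM, followed within its family by BTG3 (ENSG00000154640) at chr21:17593653-17612947 (minus strand) with 93.7 TPM. TOB1 (ENSG00000141232) at chr17:50862223-50867978 (minus strand) and BTG1 (ENSG00000133639) at chr12:92140278-92145846 (minus strand) had medians of 57.3 and 57.2 TPM. Between 88.4% and 96.9% of the BTG1 reads mapped uniquely.

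The mRNAs of the ZFP36 family carry in their own 3′UTR the kind of element that their proteins bind. The nonamer TTATTTATT (written as DNA) was found 1 time in the 3′UTR of each of the 3 genes and in none of the other 7 members, while 8.498% of 19229 protein-coding transcripts of GENCODE v44 (GRCh38) hold it. Among transcripts with a 3′UTR of like length the share was 5.1% for ZFP36, 9.6% for ZFP36L1 and 9.4% for ZFP36L2. The 3 sites are shown as matches to the longer AU-rich pattern searched, and other shared sequence was not looked for. The capitals mark the nonamer and 10 bases stand on each side.
ZFP36 (chr19:39409196-39409224, plus strand): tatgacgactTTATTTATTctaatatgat
ZFP36L1 (chr14:68788077-68788105, minus strand): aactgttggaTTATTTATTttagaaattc
ZFP36L2 (chr2:43223448-43223476, minus strand): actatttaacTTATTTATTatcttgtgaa

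The shorter core TATTTAT, which the nonamer contains, occurred in 7 of 10 members (3 times each in ZFP36, ZFP36L1 and ZFP36L2, 2 times in BTG3 and 1 time each in TENT5A, BTG1 and BTG2) and in 31.75% of the transcripts. Longer 3′UTRs hold it more often: among transcripts of like length the share was 63.2% for TENT5A, 61.9% for BTG1, 45.8% for BTG2, 40.5% for ZFP36L1, 40.6% for ZFP36L2, 20.9% for ZFP36 and 12.8% for BTG3. TENT5B, TENT5C and TOB1 had no match in this transcript. Binding was not measured.

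TENT5B, ZFP36 and BTG2 had the largest differences of the members 1 h after a single 1 mM dose, so their promoters are shown (RefSeq, GRCh38.p14, 250 bases before to 50 after the start). Capitals mark an AP-1 site (TGANTCA) in TENT5B, and in BTG2 a CRE core (TGACG) and a pair of EGR sites (GCGNGGGCG). The ZFP36 window held no match to any motif searched.
TENT5B (chr1:27012801-27013100, minus strand): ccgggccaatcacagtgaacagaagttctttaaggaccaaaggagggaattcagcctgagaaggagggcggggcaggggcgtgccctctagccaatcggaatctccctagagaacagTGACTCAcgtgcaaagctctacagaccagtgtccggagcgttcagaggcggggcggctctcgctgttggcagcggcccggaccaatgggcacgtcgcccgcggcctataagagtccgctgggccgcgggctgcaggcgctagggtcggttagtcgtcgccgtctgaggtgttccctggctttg
ZFP36 (chr19:39406597-39406896, plus strand): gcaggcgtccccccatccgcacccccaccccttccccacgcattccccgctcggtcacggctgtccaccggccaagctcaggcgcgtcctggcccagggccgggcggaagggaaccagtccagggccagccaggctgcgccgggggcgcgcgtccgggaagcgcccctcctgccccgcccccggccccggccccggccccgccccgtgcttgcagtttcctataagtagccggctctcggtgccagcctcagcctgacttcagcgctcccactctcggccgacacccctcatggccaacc
BTG2 (chr1:203305269-203305568, plus strand): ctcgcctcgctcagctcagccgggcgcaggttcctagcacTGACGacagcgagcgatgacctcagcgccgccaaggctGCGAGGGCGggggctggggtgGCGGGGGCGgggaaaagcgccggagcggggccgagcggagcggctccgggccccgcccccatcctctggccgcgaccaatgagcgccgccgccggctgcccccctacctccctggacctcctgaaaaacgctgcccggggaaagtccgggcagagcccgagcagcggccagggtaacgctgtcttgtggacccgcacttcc

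The AP-1 site of TENT5B lay at -133 to -127 from the start, and 7.707% of 35097 promoters of this length held such a site on either strand. In BTG2 the CRE core lay at -210 to -206 and the EGR sites at -172 to -164 and -151 to -143. An EGR site was in 9.425% of all promoters and in 2 of 10 members (BTG2 and ZFP36L1), and the CRE core in 24.55% and in 5 of 10 members. The full CRE (TGACGTCA, which contains the core) was in 1.849% of promoters and among the members in ZFP36L1 alone, at -52 to -45. TATAAA on the given strand was in 7.331% of promoters and in TENT5A and BTG1. A CArG box, the site of serum response factor, was in 1.294% of promoters and in 0 of 10 members. No window of ZFP36L2 was searched, so in these counts of 10 it stands as a member without a match. ZFP36L1 and TOB1 had more than a single window each, and a match in any of them counted. A match describes the letters of the window only.

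The first comparison asked how the members respond 1 h after a single dose of 1 mM dopamine. TENT5B, ZFP36 and BTG2 rose most, with TENT5B 11.6-fold, ZFP36 14.00-fold and BTG2 3.00-fold above PBS, and TENT5A, ZFP36L1 and BTG1 rose by smaller amounts. In all, 6 of 10 members passed the test (adjusted p-value under 0.05 in edgeR's quasi-likelihood test on exon reads), all of them higher, where 16% of 17804 genes tested passed in either direction and 8.04% were higher. The median log2(fold change) was 0.83 over the members and 0.01 over all genes tested.

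Among the polymerases, TENT5B was at 3.98, 3.88 and 2.51 TPM in the PBS libraries and at 40.8, 36.5 and 37.99 TPM 1 h after dopamine. Every dopamine library thus lay far above every PBS library, and the log2(fold change) was 3.54 ± 0.30 (SE) with an adjusted p-value of 2.43e-05. TENT5A was at 5.14, 4.46 and 5.36 TPM and then at 12.1, 9.18 and 11.7 TPM. The groups did not overlap for TENT5A either, yet its log2(fold change) of 1.21 ± 0.39 (SE) passed only narrowly, with an adjusted p-value of 0.04996. The TENT5A call was lost whichever of the 6 libraries was left out (adjusted p-values of 0.0793 to 0.162), and with total gene reads the log2(fold change) was 0.43 (adjusted p-value 0.277). TENT5C, at 4.38 ± 1.40 TPM (SD, n = 3) in PBS and 6.67 ± 0.657 TPM (SD, n = 3) after dopamine, did not pass (0.68 ± 0.47 SE, adjusted p-value 0.359).

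ZFP36 was at 5.47, 4.18 and 4.16 TPM in PBS and at 56.99, 63.6 and 64.5 TPM 1 h after 1 mM dopamine, 3.81 ± 0.66 (SE) on the log2 scale with an adjusted p-value of 0.00267. The level of ZFP36 thus moved from near that of the TENT5 genes to near that of BTG1 and TOB1. Its relative ZFP36L1 was at 148, 119.6 and 112 TPM and then at 217, 181 and 199 TPM. For ZFP36L1 the groups were also apart, and the log2(fold change) was 0.72 ± 0.14 (SE, adjusted p-value 0.00509). ZFP36L2 was at 144, 109.9 and 117 TPM and then at 189.5, 201 and 222 TPM. These ranges did not overlap, but ZFP36L2 did not pass in the fit of all 15 libraries (0.79 ± 0.35 SE, adjusted p-value 0.145).

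In the BTG/TOB family, BTG2 was at 78.2, 91.9 and 95.9 TPM in PBS and at 277, 231 and 256 TPM after dopamine (1.59 ± 0.28 SE, adjusted p-value 0.00327). BTG1 was at 72.00, 65.4 and 62.7 TPM and then at 98.1, 91.5 and 98.5 TPM (0.59 ± 0.15 SE, adjusted p-value 0.0174). Both were above PBS in 3 of 3 libraries, BTG1 by a much smaller step, and the BTG1 call was lost without PBS replicate 2 (adjusted p-value 0.0744), PBS replicate 3 (0.0672), Acute 1 h replicate 1 (0.0517) or Acute 1 h replicate 3 (0.0700). TOB1, at 48.2, 54.4 and 47.8 TPM and then at 94.3, 84.7 and 85.2 TPM, did not pass (0.88 ± 0.41 SE, adjusted p-value 0.160). BTG3 differed in direction from the rest of the members: it was at 129, 141 and 129 TPM in PBS and at 98.1, 94.1 and 91.9 TPM after dopamine, without passing the test (-0.42 ± 0.22 SE, adjusted p-value 0.204).

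The 4 members that did not pass had groups that were apart in TPM, and the spread in that fit includes the 1 mM Acute 24 h library that stands apart. Without it, all 10 members passed in the same comparison, 9 higher and BTG3 lower (-0.44 ± 0.16 SE, adjusted p-value 0.0374), where 39.8% of 18178 genes passed. The log2(fold change) was then 0.77 ± 0.13 (SE) for ZFP36L2, 0.86 ± 0.09 for TOB1 and 0.66 ± 0.21 for TENT5C, close to the values with it, while the standard errors were smaller. The share of intronic reads was 12.3% to 13.2% at Acute 1 h and 19.5% to 21.8% in PBS. With total gene reads, 7 of 10 members passed (47.2% of genes), and TENT5B (log2(fold change) 3.67), ZFP36 (4.12) and BTG2 (1.92) were again higher. DESeq2's Wald test called 5 members (20.4% of genes), and gave no p-value for ZFP36 in any comparison within the 1 mM experiment. The 11 striatal markers summed to 161 to 179 TPM in PBS and 139 to 149 TPM at Acute 1 h, the 6 progenitor and astrocyte markers to 2441 to 2950.3 and 2609.9 to 2935 TPM, and the part of cell composition in the result was not tested.

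**Figure D1:**
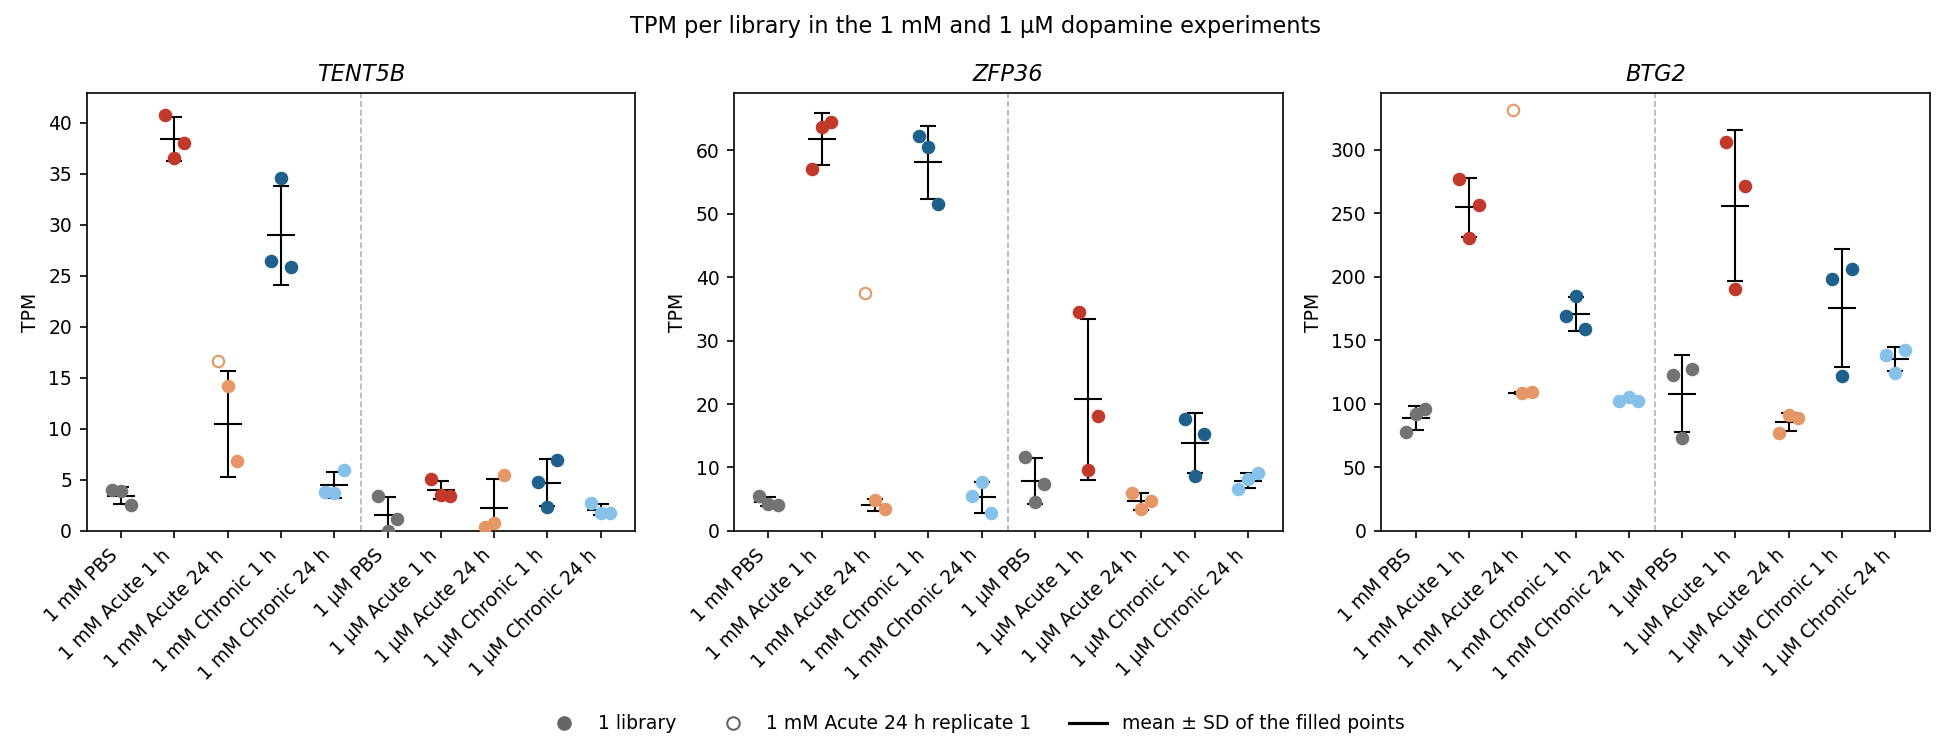
TPM (vertical axis) of TENT5B, ZFP36 and BTG2 in each library of the 1 mM and 1 µM dopamine experiments (horizontal axis, conditions). Points are libraries, bars are mean ± SD, and the open point is replicate 1 of 1 mM Acute 24 h, which is left out of the mean. For TENT5B and ZFP36 the 1 mM Acute 1 h and Chronic 1 h libraries lie above all others, while BTG2 reached about the same mean at 1 h after 1 mM (255 TPM) and 1 µM (256 TPM).

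A day after the single 1 mM dose, TENT5B was still raised while ZFP36 and BTG2 in replicates 2 and 3 lay near PBS. TENT5B was at 16.6, 14.2 and 6.84 TPM, each library above the highest PBS library (1.72 ± 0.29 SE, adjusted p-value 0.00454, 3.29-fold). ZFP36 was at 37.5, 4.81 and 3.42 TPM and BTG2 at 331, 108 and 109 TPM. In both, replicate 1 was far above the other libraries of its group. For BTG2 those libraries lay slightly above PBS. For ZFP36 replicate 2 lay within the PBS range (4.16 to 5.47 TPM) and replicate 3 below it. ZFP36L2 was at 733, 213 and 180.4 TPM and passed (1.42 ± 0.36 SE, adjusted p-value 0.0224), as did TENT5A (1.26 ± 0.39 SE, adjusted p-value 0.0443).

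Thus 3 of 10 members passed at Acute 24 h, where 15.5% of genes did and 8.38% were higher. Without replicate 1 of this group 3 members also passed, with BTG3 in place of TENT5A: TENT5B (1.55 ± 0.30 SE, adjusted p-value 0.00263) and ZFP36L2 (0.62 ± 0.15 SE, adjusted p-value 0.00899) stayed higher, BTG3 was lower (-0.55 ± 0.18 SE, adjusted p-value 0.0376), and TENT5A was not called (0.49 ± 0.22 SE, adjusted p-value 0.120), where 22.3% of genes passed. Without it the ZFP36 difference was -0.21 ± 0.31 (SE), against 1.46 ± 0.65 with it, so its sign rested on that library. The ZFP36L2 call was also lost without PBS replicate 1 (adjusted p-value 0.0610), PBS replicate 2 (0.0973) or PBS replicate 3 (0.0676), and the TENT5A call without any one of the PBS libraries (0.0951 to 0.146). In a fit of the Acute 24 h and PBS libraries alone, 0 of 10 members passed (0% of genes), with 3 at an unadjusted p-value under 0.05, and DESeq2's Wald test on all groups called 5 (22.8% of genes). The share of intronic reads was 12.5% to 15.9% at Acute 24 h, and with total gene reads, where 43.8% of genes passed, 7 members were higher and TENT5A was not among them.

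Measured against Acute 1 h, the later time point was lower for TENT5B (-1.82 ± 0.26 SE, adjusted p-value 0.00380), ZFP36 (-2.34 ± 0.60 SE, adjusted p-value 0.0478) and ZFP36L1 (-0.58 ± 0.14 SE, adjusted p-value 0.0428), that is, for 3 of 10 members, where 3.49% of genes passed and 1.38% were lower. Without the library that stands apart 7 of 10 were lower (9.3% of genes passing), with ZFP36 at -4.01 ± 0.26 (SE), BTG2 at -1.33 ± 0.09 and TOB1 at -0.73 ± 0.09. TENT5A, TENT5C, ZFP36L2, BTG3 and TOB1 were above 0 with it and below 0 without it, and of these TENT5C and TOB1 passed without it and none with it. The ZFP36 and ZFP36L1 calls were lost when Acute 1 h replicate 1, 2 or 3 was left out (adjusted p-values of 0.114 to 0.144 and of 0.108 to 0.136).

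**Figure D2:**
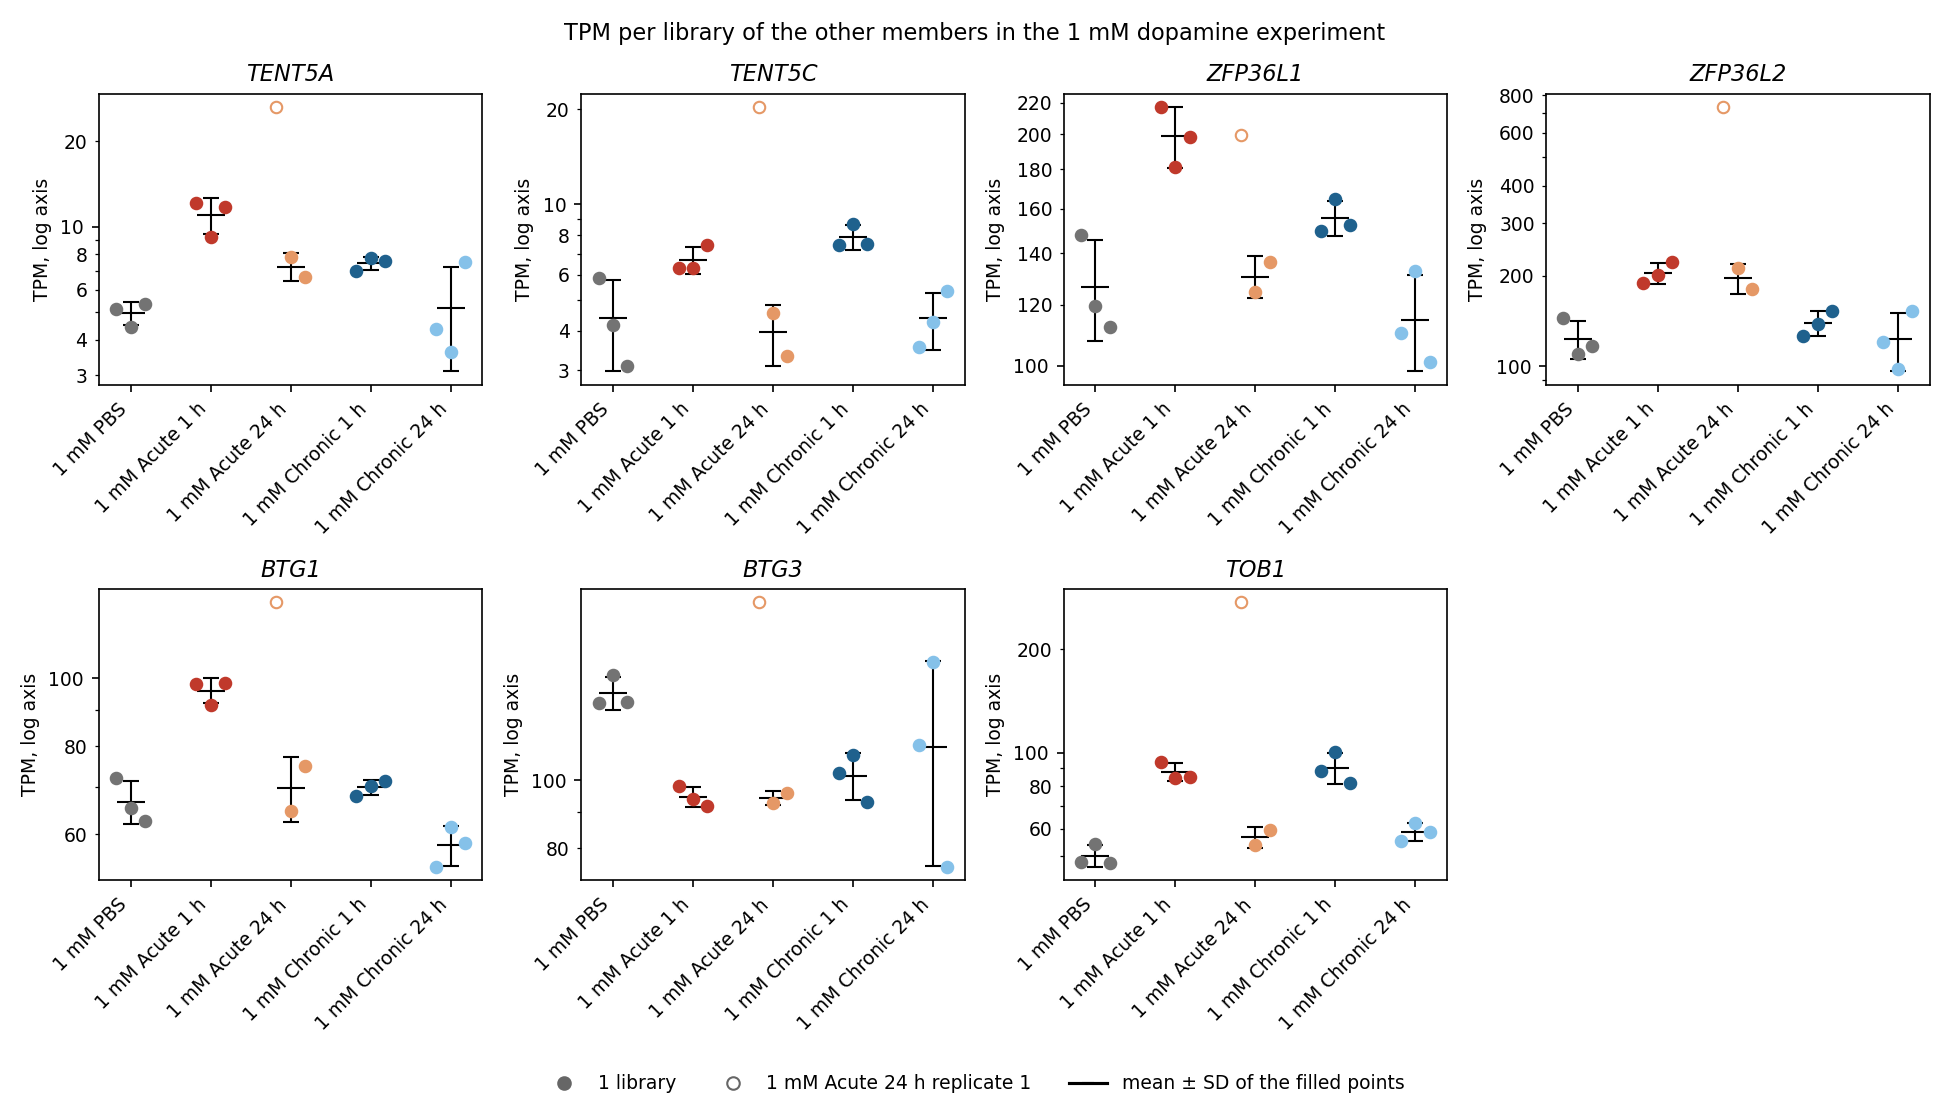
TPM (vertical log axis, scaled to each gene) of the other 7 members in each library of the 1 mM dopamine experiment (horizontal axis, conditions). Points are libraries, bars are mean ± SD of the filled points, and the open point is replicate 1 of Acute 24 h, which is the highest of its group in each panel and reaches 733 TPM for ZFP36L2.

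After 5 days of daily 1 mM dopamine, TENT5B and ZFP36 rose again within 1 h of the last dose. TENT5B was at 26.5, 34.5 and 25.9 TPM (3.02 ± 0.29 SE, adjusted p-value 0.000344) and ZFP36 at 62.3, 60.5 and 51.5 TPM (3.61 ± 0.65 SE, adjusted p-value 0.0153). All 6 of these values were several times the PBS level. They were the 2 of 10 members that passed, where 2.08% of genes did and 1.27% were higher, and the ZFP36 call was lost without PBS replicate 1 (adjusted p-value 0.0756), PBS replicate 2 (0.0847), PBS replicate 3 (0.0569) or Chronic 1 h replicate 2 (0.0662). Without the Acute 24 h library that stands apart, the ZFP36 adjusted p-value was 5.93e-08, and TENT5C (0.81 ± 0.20 SE, adjusted p-value 0.0121), BTG2 (0.90 ± 0.08 SE, adjusted p-value 4.2e-06) and TOB1 (0.81 ± 0.08 SE, adjusted p-value 1.62e-05) also passed, so that 5 of 10 members were higher, where 18.4% of genes passed. Between PBS and Chronic 1 h the 3 oligodendrocyte lineage markers summed to 80.1 to 95.3 and 129.8 to 136 TPM, the progenitor and astrocyte markers to 2441 to 2950.3 and 2192 to 2344 TPM, and the striatal markers to 161 to 179 and 141 to 158 TPM. None of these ranges overlapped, and their part in the result was not tested. The 5 Day group of the time course also followed 5 days of daily 1 mM doses, but its levels were lower. TENT5B averaged 6.04 TPM there and 28.96 TPM at Chronic 1 h, and ZFP36 17.6 and 58.1 TPM. The controls were closer, at 3.18 (AA control) and 3.46 TPM (PBS) for TENT5B and 4.96 and 4.60 TPM for ZFP36. This difference between experiments was not tested.

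The chronic and acute values at 1 h were compared directly to ask whether repeated doses changed the response. For ZFP36 the difference was -0.19 ± 0.55 (SE, 95% interval -1.27 to 0.88, adjusted p-value 0.869), and without the Acute 24 h library -0.18 ± 0.17 with an interval of -0.51 to 0.16. ZFP36L1 (-0.46 ± 0.14 SE, adjusted p-value 0.0490) and BTG1 (-0.57 ± 0.15 SE, adjusted p-value 0.0271) were lower at Chronic 1 h, that is, 2 of 10 members, where 11.3% of genes passed and 5.91% were lower. In levels, BTG1 was at 67.98, 70.3 and 71.4 TPM at Chronic 1 h, within the range of PBS at the upper end, and ZFP36L1 at 149.6, 165 and 152 TPM, just above it. Both calls were lost whichever of the 6 libraries was left out (adjusted p-values of 0.0711 to 0.154 and of 0.0593 to 0.101).

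Without the Acute 24 h library, TENT5A (-0.66 ± 0.19 SE), ZFP36L2 (-0.64 ± 0.13 SE) and BTG2 (-0.67 ± 0.08 SE) were lower at Chronic 1 h as well, 5 of 10 members against 34% of genes. TENT5B, at -0.50 ± 0.20 (SE, adjusted p-value 0.0672), did not pass in that fit. It was lower in a fit of the 2 groups alone (-0.51 ± 0.11 SE, adjusted p-value 0.00218, 44% of genes passing) and with total gene reads (-0.86 ± 0.24 SE, adjusted p-value 0.0108, 40.1%), and its TPM did not overlap between the groups. TOB1 (-0.06 ± 0.08 SE, interval -0.22 to 0.11) and BTG3 (0.01 ± 0.16 SE, interval -0.31 to 0.32) were the members nearest to 0. Differences between members were not tested. The share of intronic reads was 12.3% to 13.2% at Acute 1 h and 20.6% to 20.9% at Chronic 1 h. The oligodendrocyte lineage markers summed to 89.02 to 103 and 129.8 to 136 TPM, the mesenchymal and endothelial markers to 44.4 to 46.7 and 57.4 to 84.5 TPM, and the progenitor and astrocyte markers to 2609.9 to 2935 and 2192 to 2344 TPM, in each case without overlap, and the part of these differences in the result was not tested.

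At 24 h after the last chronic dose 0 of 10 members passed against PBS, where 0.663% of genes did, 0 reached an unadjusted p-value under 0.05 and DESeq2 called 0 (2.4% of genes). Without the Acute 24 h library 3 members (BTG1, BTG2 and TOB1) were under 0.05 before adjustment, and still 0 passed. TENT5B was at 3.79, 3.73 and 5.96 TPM and ZFP36 at 5.56, 7.67 and 2.77 TPM, both overlapping PBS. From Chronic 1 h to Chronic 24 h, TENT5B fell by 2.67 on the log2 scale (SE 0.28, adjusted p-value 0.00106) and ZFP36 fell by 3.43 (SE 0.64, adjusted p-value 0.0397), where 0.359% of genes passed and 0.331% were lower. The ZFP36 call was lost whichever library was left out (adjusted p-values of 0.0989 to 0.202). Without the Acute 24 h library it was 9.31e-08, and 7 of 10 members were then lower (4.89% of genes passing).

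At 1 µM BTG2 was the member with the clearest response at 1 h. BTG2 was at 123, 73.5 and 128 TPM in PBS and at 306, 190.3 and 272 TPM at Acute 1 h, with every dopamine library above every PBS library (1.28 ± 0.14 SE, 2.42-fold, adjusted p-value 0.000125). ZFP36L2 was at 64.96, 46.7 and 57.7 TPM and then at 81.00, 61.9 and 109 TPM. It rose by 0.57 ± 0.15 (SE, adjusted p-value 0.0327) although the ranges overlapped. BTG3 fell, from 218, 209 and 188 TPM to 130.3, 135 and 133 TPM (-0.62 ± 0.16 SE, adjusted p-value 0.0381). These were 3 of 10 members, where 5.77% of 16541 genes passed, 3.25% higher and 2.52% lower.

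The ZFP36L2 and BTG3 calls at 1 µM were the less steady ones. ZFP36L2 was lost without PBS replicate 1 (adjusted p-value 0.0992), replicate 2 (0.0637) or replicate 3 (0.125), or without Acute 1 h replicate 1 (0.0595) or 3 (0.114). BTG3 was lost without PBS replicate 1 (0.0521) or 2 (0.114), or without Acute 1 h replicate 1 (0.0887) or 3 (0.0839). In a fit of the PBS and Acute 1 h libraries alone, only BTG2 passed (0.339% of genes). DESeq2's Wald test called 6 members (10.7% of genes), adding TENT5A, ZFP36 and TOB1.

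ZFP36 at 1 µM was scattered: it was at 11.7, 4.55 and 7.34 TPM in PBS and at 34.5, 9.57 and 18.2 TPM at Acute 1 h (1.42 ± 0.41 SE, adjusted p-value 0.0563). The ranges overlapped, since 1 dopamine library lay below the highest PBS library. With the replicate number as a block ZFP36 passed (1.37 ± 0.34 SE, adjusted p-value 0.0337, 5.66% of genes passing), although the numbers were not found to pair the libraries. TENT5B was at 3.44, 0 and 1.18 TPM and then at 5.08, 3.55 and 3.43 TPM, again with overlap (1.54 ± 0.93 SE, 95% interval -0.29 to 3.36, adjusted p-value 0.391). TENT5B and TENT5C had 0 exon reads in PBS replicate 2, which at that depth allows up to 0.419 TPM of TENT5B and 0.177 TPM of TENT5C (3 reads, counting error only). That library held exon reads in fewer genes, 16085 against 21299 and 20989 in PBS replicates 1 and 3. Its depth was 9584706 exon reads against 11026492 and 9718506. It was also the lowest PBS library for ZFP36, ZFP36L2 and BTG2, and its part in the 1 µM differences from PBS was not tested beyond leaving it out. TENT5B had 0 to 22 exon reads per library in PBS and 18 to 21 at Acute 1 h, so its interval at this dose was wide.

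In the other 1 µM groups few members passed. At Acute 24 h BTG3 was lower, at 105, 108 and 127 TPM against 218, 209 and 188 TPM in PBS (-0.93 ± 0.16 SE, adjusted p-value 0.00766, 3.31% of genes passing, 1.91% lower), and this call held whichever library was left out. At Chronic 1 h BTG2 was at 198, 122 and 206 TPM (0.75 ± 0.14 SE, adjusted p-value 0.0119) and BTG1 at 39.4, 23.3 and 45.02 TPM against 67.7, 48.6 and 58.99 TPM in PBS (-0.68 ± 0.15 SE, adjusted p-value 0.0277). BTG2 was thus higher and BTG1 lower, 2 of 10 members where 2.58% of genes passed, 1.75% higher and 0.834% lower. At Chronic 24 h 0 of 10 members and 0% of genes passed by edgeR, with 1 member at an unadjusted p-value under 0.05 and 0 called by DESeq2 (0.00605% of genes).

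Neither call at 1 µM Chronic 1 h was steady. The BTG2 call was lost without PBS replicate 1 (adjusted p-value 0.0541) or 2 (0.0582) or Chronic 1 h replicate 1 (0.0809) or 3 (0.0621). The BTG1 call was lost without PBS replicate 1 (0.101), 2 (0.0837) or 3 (0.0770) or Chronic 1 h replicate 1 (0.102) or 2 (0.0954), and with total gene reads its adjusted p-value was 0.243. TENT5A had a larger difference than either without passing, from 1.41, 1.10 and 1.60 TPM in PBS to 3.11, 4.68 and 4.20 TPM (1.62 ± 0.49 SE, adjusted p-value 0.109), and DESeq2 called it higher (1.63 ± 0.50 SE, adjusted p-value 0.0252, 5.75% of genes passing).

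Within the 1 µM experiment, BTG2 fell from Acute 1 h to Acute 24 h by 1.63 on the log2 scale (SE 0.15, adjusted p-value 3.01e-05), where 0.592% of genes passed and 0.447% were lower. ZFP36 (-2.15 ± 0.42 SE, adjusted p-value 0.0308) and ZFP36L2 (-0.74 ± 0.15 SE, adjusted p-value 0.0307) were lower too. ZFP36L2 was also the 1 of 10 members that was lower at Chronic 1 h than at Acute 1 h (-0.73 ± 0.15 SE, adjusted p-value 0.0262), where 1.2% of genes passed and 0.647% were lower, and BTG1 the 1 of 10 that was higher at Chronic 24 h than at Chronic 1 h (0.73 ± 0.15 SE, adjusted p-value 0.0219), where 1.95% of genes passed and 0.399% were higher. TENT5A was at 3.11, 4.68 and 4.20 TPM at Chronic 1 h and 1.44, 1.26 and 1.66 TPM at Chronic 24 h, without overlap and without passing (-1.58 ± 0.48 SE, adjusted p-value 0.131). It was lower in a fit of these groups alone (-1.60 ± 0.33 SE, adjusted p-value 0.0477, 2.55% of genes passing) and by DESeq2 (-1.59 ± 0.49 SE, adjusted p-value 0.0297), which also called TOB1 lower (-0.73 ± 0.24 SE, adjusted p-value 0.0385, 4.94% of genes passing). Apart from that of BTG2, the calls of the fit of all 15 libraries were lost in a fit of the compared groups alone (adjusted p-values of 0.0610 to 0.521).

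The response at 1 h was compared between doses through an interaction term, fitted to the 30 libraries of both dopamine experiments. BTG1 was the 1 of 10 members whose difference from PBS differed between the doses at Acute 1 h (0.98 ± 0.21 SE, adjusted p-value 0.0156), where 2.01% of 18390 genes passed and 1.09% were larger at 1 mM: it rose at 1 mM and its value at 1 µM was -0.37 ± 0.15 (SE, adjusted p-value 0.183). This call was lost without 1 mM PBS replicate 2 (adjusted p-value 0.0526) or 1 mM Acute 1 h replicate 3 (0.05). For TENT5B the dose difference was 2.08 ± 0.85 (SE, interval 0.41 to 3.75, adjusted p-value 0.231), which did not pass over all genes. ZFP36 had a dose difference of 2.42 ± 0.77 (SE, adjusted p-value 0.101), and without the Acute 24 h library 2.42 ± 0.49 (SE, adjusted p-value 0.00473).

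For BTG2 the dose difference was 0.33 ± 0.32 (SE, interval -0.29 to 0.96), and it rose at both doses. At Chronic 1 h 0 of 10 members passed (0.087% of genes passing, 2 members at an unadjusted p-value under 0.05), and ZFP36 was at 2.71 ± 0.77 (SE, adjusted p-value 0.215), or 2.72 ± 0.49 (SE, adjusted p-value 0.00615) without the Acute 24 h library. DESeq2 called ZFP36 there (0.712% of genes). The doses had controls of their own, and the libraries of the 1 mM experiment were deeper (median 16567508 exon reads against 9660287), so dose and experiment cannot be told apart.

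**Figure D3:**
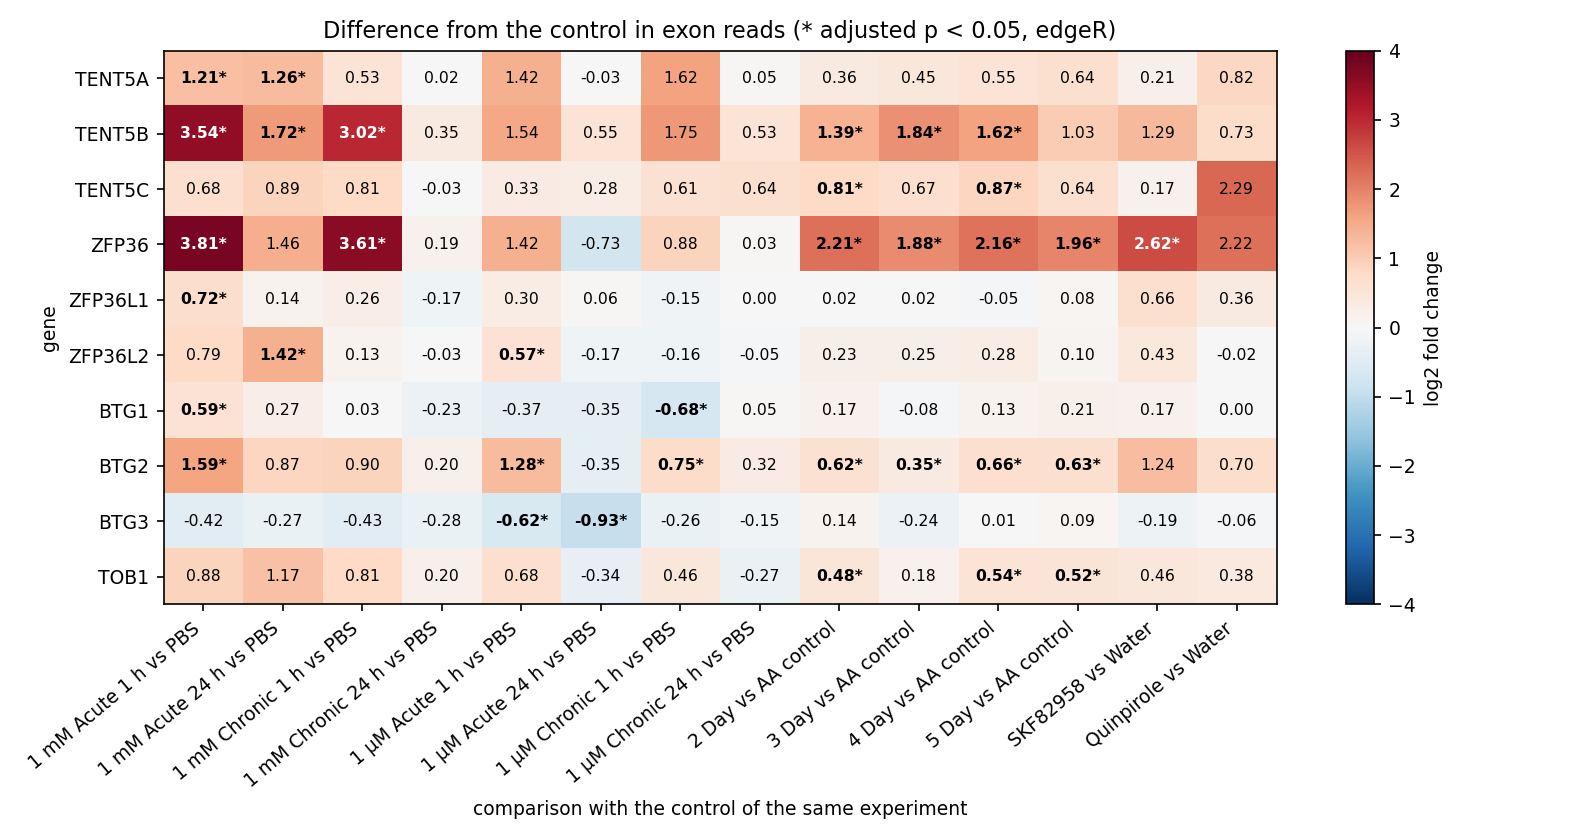
Log2(fold change) of each member (rows) in the 14 comparisons with the control of the same experiment (columns), from edgeR on exon reads with all libraries in the fit. Colour and number give the log2(fold change), and bold numbers with an asterisk passed at an adjusted p-value under 0.05. TENT5B and ZFP36 hold the largest values, BTG3 is the member that is mostly below 0, and the TENT5C value of 2.29 for quinpirole rests on replicate 1 of that group.

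The time course repeated the 1 mM dose on 2 to 5 days with all RNA taken 1 h after the last dose. ZFP36 was higher than in the AA control at each of the 4 time points, and so was BTG2, while TENT5B passed at 2, 3 and 4 Day. ZFP36 was at 5.14, 4.22 and 5.53 TPM in the AA control, at 20.2, 27.8 and 14.4 TPM at 2 Day and at 13.8, 16.5 and 21.3 TPM at 3 Day. At 4 Day it was at 18.9, 19.3 and 27.2 TPM and in the pair of 5 Day libraries at 18.9 and 16.3 TPM. Every dopamine library lay above every control library. Its log2(fold change) was 2.21 ± 0.28, 1.88 ± 0.29, 2.16 ± 0.29 and 1.96 ± 0.32 (SE) in turn, with adjusted p-values of 0.000573, 0.00143, 0.000654 and 0.00688, and these calls held whichever library was left out.

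TENT5B was at 2.77, 3.03 and 3.74 TPM in the control and at 7.82, 13.2 and 10.9 TPM at 3 Day, where its log2(fold change) was 1.84 ± 0.28 (SE, adjusted p-value 0.00133). It was 1.39 ± 0.28 at 2 Day (adjusted p-value 0.0149) and 1.62 ± 0.28 at 4 Day (adjusted p-value 0.00514). With 3.92 and 8.15 TPM the 5 Day libraries were both above the control, but the difference did not pass (1.03 ± 0.33 SE, adjusted p-value 0.134), except with no filter on low counts (1.00 ± 0.28 SE, adjusted p-value 0.0199, 2.96% of genes passing). That miss does not show a lower value at 5 Day: 5 Day minus 2 Day was -0.36 ± 0.30 (SE, interval -0.96 to 0.23). Indeed 0 of 10 members passed between 5 Day and 2 Day, where 0.0239% of genes did, 0 reached an unadjusted p-value under 0.05, and DESeq2 called 0 (0.0596% of genes).

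BTG2 was at 85.2, 86.2 and 86.2 TPM in the control, at 112, 132 and 117 TPM at 2 Day and at 124, 123 and 152 TPM at 4 Day. The control libraries lay close together and every dopamine library lay above them. The log2(fold change) was 0.62 ± 0.10, 0.35 ± 0.10, 0.66 ± 0.10 and 0.63 ± 0.11 (SE) at 2 to 5 Day, with adjusted p-values of 0.00327, 0.0477, 0.00184 and 0.0110. TOB1 passed at 2, 4 and 5 Day (0.48 ± 0.10, 0.54 ± 0.10 and 0.52 ± 0.11 SE) and TENT5C at 2 and 4 Day (0.81 ± 0.20 and 0.87 ± 0.20 SE). TENT5C was at 1.55, 1.97 and 1.88 TPM in the control and 3.91, 2.95 and 2.89 TPM at 4 Day. ZFP36L1, ZFP36L2, BTG1, BTG3 and TENT5A passed at none of the 4 time points in the fit of all groups, with TENT5A between 0.36 and 0.64 and ZFP36L1 between -0.05 and 0.08; all of these but ZFP36L1 and BTG3 were at an unadjusted p-value under 0.05 at 2 Day, and DESeq2 called none of them. In a fit of the 4 Day and control libraries alone TENT5A (0.54 ± 0.14 SE, adjusted p-value 0.0234) and ZFP36L2 (0.28 ± 0.07 SE, adjusted p-value 0.0249) were higher, where 13.5% of genes passed, and with total gene reads TENT5A was higher at 5 Day (0.81 ± 0.18 SE, adjusted p-value 0.0498, 1.02% of genes passing).

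Counted together, 5 members passed at 2 Day, 3 at 3 Day, 5 at 4 Day and 3 at 5 Day, all higher, where 3.88%, 7.37%, 4.38% and 1.63% of genes passed in either direction and 1.89%, 4.77%, 2.58% and 1.23% were higher. With total gene reads the counts were 4, 2, 4 and 2 (3.35%, 4.95%, 2.13% and 1.02% of genes). BTG2 was then lost at 3 Day (adjusted p-value 0.154) and 5 Day (0.0723). TOB1 was lost at 5 Day (0.0886) and TENT5C at 2 Day (0.0530) and 4 Day (0.0560). TOB1 at 5 Day and TENT5C at 2 Day were also lost with only the groups compared (0.0822 and 0.0516) and with a replicate block (0.0658 and 0.0571). The 4 comparisons share their control libraries. BTG2 at 3 Day was lost without any one of 3 Day replicate 2 or 3 or AA control replicate 1, 2 or 3 (adjusted p-values of 0.0782 to 0.182), and at 5 Day without AA control replicate 1 (0.0534) or 2 (0.0538). TENT5B at 2 Day was lost without 2 Day replicate 2 (0.114) or AA control replicate 1 (0.0749) or 2 (0.0732). Each TENT5C call stood with 1 of 6 libraries left out, and was otherwise lost (adjusted p-values up to 0.199 at 2 Day and 0.117 at 4 Day). TOB1 stood in 3 of 6 at 2 Day, 4 of 6 at 4 Day and 1 of 5 at 5 Day (adjusted p-values up to 0.126, 0.0517 and 0.131). The 4 mesenchymal and endothelial markers, of which PECAM1 and CDH5 had medians of 0.0459 and 0.0700 TPM, summed to 101 to 148 TPM in the AA control and 168 to 329 TPM at 3 Day, and the 11 striatal markers to 179 to 194 and 153 to 173 TPM, and their part in the result was not tested.

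**Figure D4:**
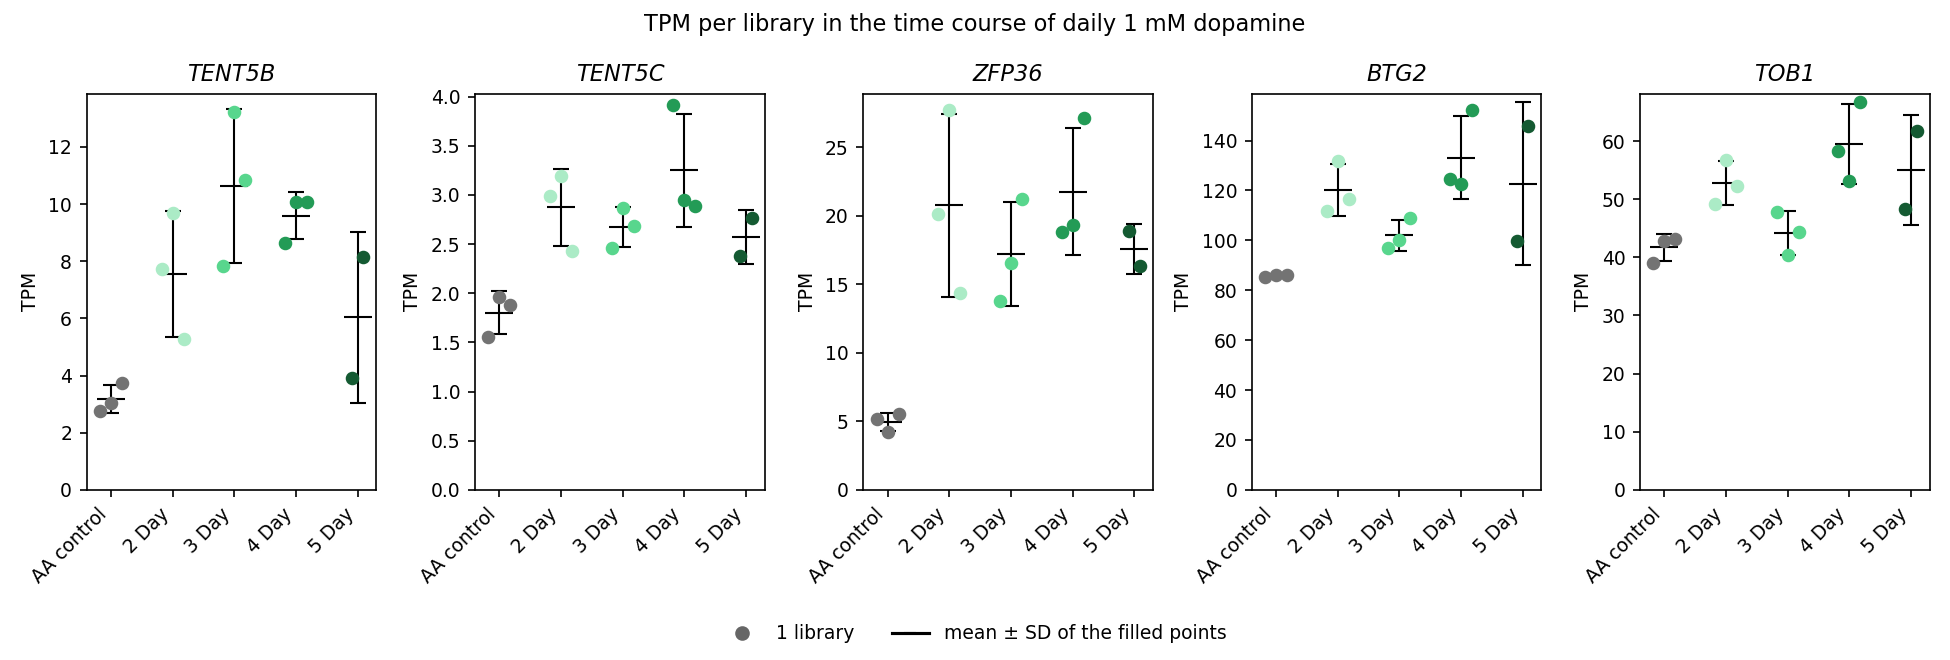
TPM (vertical axis, from 0) of TENT5B, TENT5C, ZFP36, BTG2 and TOB1 in each library of the time course (horizontal axis, days of daily 1 mM dopamine and the AA control). Points are libraries and bars are mean ± SD. ZFP36 is at 4.96 TPM in the control and at 17.2 to 21.8 TPM on average after dopamine, and the ranges of the days overlap.

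The agonists were each compared with water and with each other. Each was given at a single dose, and no group received a receptor blocker. Which receptor class moves the members was therefore not tested. Both receptor genes were detected at low levels, DRD1 with a median of 1.63 TPM and DRD2 of 3.69 TPM over the 52 libraries. After SKF82958, ZFP36 was at 70.7, 76.6 and 71.99 TPM against 8.70, 11.8 and 13.4 TPM with water, the highest ZFP36 level of the 18 conditions (2.62 ± 0.28 SE, 6.16-fold, adjusted p-value 0.0408). It was the 1 of 10 members that passed, where 0.0124% of 16132 genes did, all of them higher. That fit includes Quinpirole replicate 1 in its estimate of the spread, and the call was lost whichever library of the compared groups was left out (adjusted p-value 1), and also with total gene reads and with no filter on low counts. Without Quinpirole replicate 1, a choice made after seeing the data, 5 of 10 members were higher, where 0.624% of 16343 genes passed.

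In that fit ZFP36 was at 2.63 ± 0.16 (SE, adjusted p-value 3.37e-07). BTG2, at 253, 212 and 244 TPM against 99.3, 90.2 and 92.9 TPM, rose by 1.24 ± 0.10 (SE, adjusted p-value 7.49e-06). TENT5B, at 16.1, 16.2 and 13.5 TPM against 6.17, 4.75 and 6.74 TPM, rose by 1.29 ± 0.17 (SE, adjusted p-value 0.00108). For these 3 genes the SKF82958 libraries were all above the water libraries. ZFP36L1, at 91.00, 95.2 and 81.7 TPM against 48.8, 51.1 and 61.3 TPM, rose by 0.66 ± 0.10 (SE, adjusted p-value 0.00267), and ZFP36L2 by 0.43 ± 0.07 (SE, adjusted p-value 0.0121). TENT5A, TENT5C, BTG1, BTG3 and TOB1 did not pass, with TOB1 at 0.46 ± 0.11 (SE, adjusted p-value 0.113), though it passed in a fit of the SKF82958 and water libraries alone (0.46 ± 0.08 SE, adjusted p-value 0.0105, 0.939% of genes passing). The progenitor and astrocyte markers summed to 1421 to 1531 TPM with water and 1594 to 1804 TPM after SKF82958, and the mesenchymal and endothelial markers to 120.2 to 129.8 and 151 to 210.1 TPM, and their part in the result was not tested.

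After quinpirole, 0 of 10 members and 0% of genes passed with all 3 libraries, with 2 members at an unadjusted p-value under 0.05, while DESeq2 called ZFP36 (0.682% of genes). The libraries differed: ZFP36 was at 0, 57.1 and 47.2 TPM, BTG2 at 11.7, 214 and 196 TPM and TENT5B at 0, 10.1 and 10.4 TPM in replicates 1, 2 and 3. The 0 of ZFP36 in replicate 1 allows up to 48.9 TPM at the depth of that library, so a low level there cannot be read from it. Without replicate 1, which leaves 2 libraries assumed to vary like the other groups, ZFP36 (2.28 ± 0.18 SE, adjusted p-value 1.06e-05), BTG2 (1.18 ± 0.11 SE, adjusted p-value 6.52e-05) and ZFP36L1 (0.60 ± 0.11 SE, adjusted p-value 0.0366) were higher than in water, 3 of 10 members where 0.184% of genes passed. TENT5B was at 0.85 ± 0.20 (SE, adjusted p-value 0.244).

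Set against each other at the same 50 µM, SKF82958 and quinpirole did not differ by the test for any of the 10 members, with all libraries or without replicate 1 (0% and 0% of genes passing), with 2 members at an unadjusted p-value under 0.05 in the latter and 2 in DESeq2's test, which also called 0 (0.329% of genes). Without replicate 1 the difference was 0.34 ± 0.15 for ZFP36 (SE, interval 0.05 to 0.64), 0.44 ± 0.19 for TENT5B (SE, interval 0.08 to 0.81) and 0.06 ± 0.11 for BTG2 (SE, interval -0.15 to 0.27). For ZFP36 and TENT5B the SKF82958 libraries were all above the quinpirole libraries in TPM. The intervals for these genes lie above 0 before adjustment over all genes, and that of BTG2 spans 0.

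**Figure D5:**
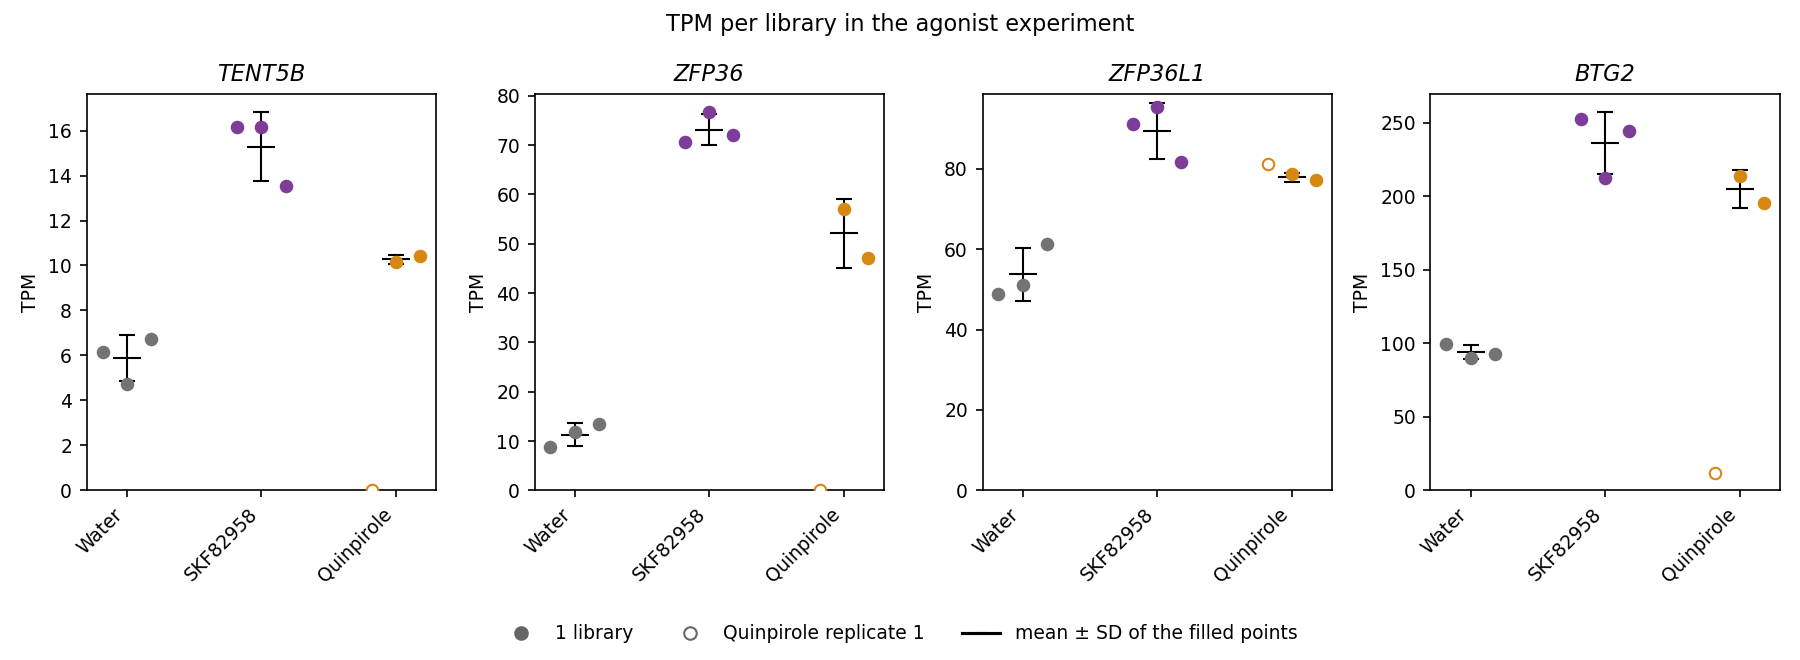
TPM (vertical axis, from 0) of TENT5B, ZFP36, ZFP36L1 and BTG2 in each library of the agonist experiment (horizontal axis, groups). Points are libraries, bars are mean ± SD of the filled points, and the open point is Quinpirole replicate 1. ZFP36 averages 11.3 TPM with water, 73.1 TPM after SKF82958 and 52.1 TPM in the other quinpirole libraries.

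Ordered by mean TPM over the 18 conditions, without Quinpirole replicate 1, the members differed in where they peaked (mean ± SD, 3 libraries each). ZFP36 was highest after SKF82958 (73.1 ± 3.11 TPM), then at 1 mM Acute 1 h (61.7 ± 4.08 TPM) and 1 mM Chronic 1 h (58.1 ± 5.74 TPM). SKF82958 did not overlap the next condition, while the 1 mM groups overlapped each other, and the lowest conditions were 1 mM PBS, 1 µM Acute 24 h and the AA control, whose ranges overlapped. TENT5B was highest at 1 mM Acute 1 h (38.4 ± 2.17 TPM), then at 1 mM Chronic 1 h (28.96 ± 4.84 TPM), and neither overlapped the next. BTG2 was highest at 1 µM Acute 1 h (256 ± 59.4 TPM) and 1 mM Acute 1 h (255 ± 23.1 TPM), which overlapped. BTG3 was highest in 1 µM PBS (205 ± 15.3 TPM) and lowest after SKF82958 (51.2 ± 4.86 TPM), and each of these overlapped its neighbour in the order. Between experiments, condition and experiment cannot be told apart in these levels.

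The genes whose pattern over the 18 condition means was most like a member's were found by Pearson correlation of log2(TPM + 1), centred within each experiment. For ZFP36 they were GADD45B (r = 0.969), IER2 (r = 0.949) and EGR2 (r = 0.945). For TENT5B they were IER2 (r = 0.969), MCL1 (r = 0.968) and SRF (r = 0.957), and for BTG2 ATF3 (r = 0.902), DUSP1 (r = 0.900) and NR4A1 (r = 0.899). EGR2, IER2, NR4A1 and ATF3 are known as immediate early genes, and SRF encodes the serum response factor. The nearest gene was RHOU (r = 0.978) for TENT5A and EIF4B (r = 0.946), a translation initiation factor, for BTG3. Among the members themselves, TENT5B and ZFP36 were the closest pair (r = 0.926), and BTG3 correlated negatively with 8 of the other 9 members. The condition means left out Quinpirole replicate 1 and kept 1 mM Acute 24 h replicate 1, whose part in the correlations was not tested. The points share libraries and controls, so these values are descriptions.

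Of 63 other genes in 5 lists written by hand (relatives of the members, deadenylation, decapping and 5′ decay, poly(A) polymerases and poly(A)-binding proteins, and other RNA-binding regulators), 61 were tested, and at 1 mM Acute 1 h 3 were higher and 7 lower, with a median log2(fold change) of -0.05. Of all genes tested, 16% passed. Among the 15 deadenylation genes, CNOT2, a subunit of CCR4-NOT, was lower (-0.29 ± 0.07 SE, adjusted p-value 0.0166). In the 16 decay genes LSM6, of the LSM ring that aids decapping, was higher (0.36 ± 0.10 SE, adjusted p-value 0.0245) and EIF4ENIF1, which binds the cap-binding protein eIF4E, lower (-0.35 ± 0.10 SE, adjusted p-value 0.0256). The poly(A) polymerase PAPOLG was lower (-0.48 ± 0.10 SE, adjusted p-value 0.00704), as were the translational repressor PUM2 (-0.41 ± 0.09 SE, adjusted p-value 0.00909) and ELAVL4 (-0.57 ± 0.13 SE, adjusted p-value 0.0101), a neuronal protein that binds and stabilizes AU-rich mRNAs.

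At 3 Day, 4 of the 61 passed, where 7.37% of the 16768 genes tested did, so the lists as a whole did not stand out. All 4 were lower: the decapping enzyme DCP2 (-0.51 ± 0.13 SE, adjusted p-value 0.0236), PAPOLG (-0.43 ± 0.10 SE, adjusted p-value 0.0172), the AU-rich element binder TIA1 (-0.31 ± 0.08 SE, adjusted p-value 0.0374) and TOB2. TOB2, the closest relative of TOB1, was lower than the AA control at all 4 time points (-0.43, -0.54, -0.46 and -0.52, adjusted p-values of 0.0250, 0.00408, 0.0158 and 0.0271), at 66.6 ± 3.26 TPM in the control and 42.7 ± 4.48 TPM at 3 Day (SD, n = 3). TOB1 and TOB2 thus moved in opposite directions at 2, 4 and 5 Day, each by its own test. In the 1 mM experiment TOB2 was instead higher than PBS at Acute 24 h (0.37 ± 0.11 SE, adjusted p-value 0.0427), and at Chronic 1 h, which also followed daily 1 mM doses, it was at -0.01 ± 0.11 SE, adjusted p-value 0.973. The other relatives, TENT5D and BTG4, did not pass the filter on low counts.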

How the data were processed

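RNA-seq libraries of H9-derived hMSN-like cells had been sequenced by 2 providers, whose assignment to libraries is not given in the sources used here. Per the labels and the study's methods, the authors mapped reads to the human genome (hg38, with Ensembl genes) with CLC Genomics Workbench, and they deposited raw counts of reads per gene (exon, intron and gene reads) and TPM. The strand setting is not given in the sources used here, so antisense reads cannot be told apart. Replicate 1 of 5 Day and the CGS21680 group were not analysed here.

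Levels are the deposited TPM. The test on total exon read counts was that of edgeR 4.0.16, run in R 4.3.3 (filterByExpr with a minimum count of 10 and a minimum total of 15, TMM, glmQLFTest), with all groups of an experiment in one fit and Benjamini-Hochberg adjustment over all genes tested. SE was taken from the log2 fold change and its F statistic, and 95% intervals use the normal quantile. Alternatives were total gene reads, DESeq2 1.42.0, other size factors, no filter, only the compared groups, a replicate block, the study's rule for differential genes and leaving out libraries. The fitting script was tested on simulated data.

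The 10 members, the pathway lists and the marker lists were chosen with earlier results of these data known. From each pathway list the up to 2 genes with the smallest adjusted p-value under 0.05 at 1 mM Acute 1 h and at 3 Day are named, and for each member up to 3 genes by correlation of condition means, from genes with a mean of at least 1 TPM. TOB2 at other time points was added after its values were seen. Intervals and limits from 3 reads cover counting error only.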

Additional observations from a re-analysis of the deposited data

Results flagged for a closer look

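Differences between groups that passed the test of the difference itself, with edgeR's quasi-likelihood test and adjustment over all genes, were these. Between Chronic 1 h and Acute 1 h at 1 mM, ZFP36L1 differed by -0.46 and BTG1 by -0.57 on the log2 scale, with the chronic libraries lower. Between Acute 24 h and Acute 1 h at 1 mM, TENT5B differed by -1.82, ZFP36 by -2.34 and ZFP36L1 by -0.58, and between Chronic 24 h and Chronic 1 h TENT5B differed by -2.67 and ZFP36 by -3.43, with the later libraries lower.

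At 1 µM, ZFP36L2 differed by -0.73 between Chronic 1 h and Acute 1 h. Between Acute 24 h and Acute 1 h at that dose ZFP36 differed by -2.15, ZFP36L2 by -0.74 and BTG2 by -1.63, and between Chronic 24 h and Chronic 1 h BTG1 differed by 0.73. The response of BTG1 at Acute 1 h was larger at 1 mM than at 1 µM by 0.98. Groups of 3 libraries are too small for the test of single outlying samples.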

How the results depend on the processing

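Counts are members passing at an adjusted p-value under 0.05 of 10 tested, and where a share follows it is that of all genes passing in the same fit. The library 1 mM Acute 24 h replicate 1 was set apart by the members' own TPM. With it left out of the fit the counts were 10 at 1 mM Acute 1 h (39.8% of genes) and 5 at Chronic 1 h (18.4%). They were 5 for Chronic 1 h against Acute 1 h (34%) and 7 for Acute 24 h against Acute 1 h (9.3%). For Chronic 24 h against Chronic 1 h there were 7 (4.89%). The dose difference gave 2 at Acute 1 h (5.1%) and 1 at Chronic 1 h (0.709%). In Acute 24 h against Acute 1 h 5 members were then below 0 instead of above it: TENT5A (-0.71), TENT5C (-0.86), ZFP36L2 (-0.16), BTG3 (-0.11) and TOB1 (-0.73), of which TENT5C and TOB1 passed. The highest values of TENT5C and TOB1 with 1 library left out were 0.61 and 0.63. Only the groups compared in the fit gave 10 at 1 mM Acute 1 h (45.5% of genes) and 8 at Chronic 1 h (25.4%). At Acute 24 h it gave 0 (0%, 3 at an unadjusted p-value under 0.05). It gave 6 for Chronic 1 h against Acute 1 h (44%) and 0 for Acute 24 h against Acute 1 h (0.0243%). For Chronic 24 h against Chronic 1 h it gave 5 (1.84%). At 1 µM it gave 1 at Acute 1 h (0.339%) and 0 at Chronic 1 h (0.221%). Chronic 1 h against Acute 1 h gave 0 at that dose (0%), and Acute 24 h against Acute 1 h 1 (0.165%). SKF82958 gave 6 (0.939%), and the dose difference 2 at Acute 1 h (0.935%) and 1 at Chronic 1 h (0.258%). With Quinpirole replicate 1 left out, a choice made after seeing the data, SKF82958 gave 5 (0.624%) and quinpirole 3 (0.184%).

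DESeq2's Wald test gave ZFP36 no p-value in the comparisons within the 1 mM experiment. There it called 5 at Acute 24 h (22.8% of genes) and 1 for Chronic 24 h against Chronic 1 h (1.33%). At 1 µM it called 6 at Acute 1 h (10.7%) and 2 for Chronic 1 h against Acute 1 h (4.32%). For Chronic 24 h against Chronic 1 h at that dose it called 3 (4.94%). It called 1 for quinpirole (0.682%), and for dose 2 at Acute 1 h (4.4%) and 1 at Chronic 1 h (0.712%). DESeq2 size factors in edgeR gave 1 for Chronic 1 h against Acute 1 h at 1 mM (11.2%). No filter gave 5 at 1 mM Acute 24 h (7.08%), 0 for SKF82958 (0%) and 2 for the dose difference at Acute 1 h (0.867%). At 1 µM it gave 1 at Chronic 1 h (1.01%) and 0 for Chronic 1 h against Acute 1 h (0.465%). Total gene reads gave 7 at 1 mM Acute 24 h (43.8% of genes) and 5 for Chronic 1 h against Acute 1 h (40.1%). At 1 µM they gave 1 at Chronic 1 h (3.58%) and 0 for Chronic 1 h against Acute 1 h (1.3%). Acute 24 h against Acute 1 h gave 1 at that dose (0.484%), and Chronic 24 h against Chronic 1 h 0 (1.62%). SKF82958 gave 0 (0%) and the dose difference at Acute 1 h 4 (27.9%), and ZFP36L1 reversed for quinpirole (-0.0202). The study's rule (a change of at least 1 on the log2 scale, with 1 TPM or more in a group) gave 0 for Chronic 1 h against Acute 1 h at 1 mM (2.82%). At 1 µM it gave 1 at Acute 1 h (2.41%), 0 at Acute 24 h (1.18%) and 0 at Chronic 1 h (1.11%). It also gave 0 for Chronic 1 h against Acute 1 h (0.496%) and for Chronic 24 h against Chronic 1 h (0.895%) at that dose.

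On average, replicate numbers did not pair the libraries. Same-numbered libraries had mean correlations of 0.00196, 0.0229, -0.0103 and -0.0249 at 1 mM, at 1 µM, in the time course and with agonists. In turn, 4 of 15, 6 of 15, 3 of 14 and 2 of 9 libraries were closest to their own number. Single same-numbered pairs ranged from -0.301 to 0.446 at 1 µM, so pairing of some libraries there is not settled. The replicate block gave 1 member for Chronic 1 h against Acute 1 h at 1 mM (9.5% of genes) and 0 for SKF82958 (0%). At 1 µM Acute 1 h it gave 4 (5.66%), with ZFP36 added (adjusted p-value 0.0337).

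Leaving out each library in turn gave 4 to 5 members at 1 mM Acute 1 h, 1 to 7 at Acute 24 h, 1 to 2 at Chronic 1 h, 0 to 0 for Chronic 1 h against Acute 1 h, 1 to 7 for Acute 24 h against Acute 1 h and 1 to 1 for Chronic 24 h against Chronic 1 h. At 1 µM it gave 1 to 4 at Acute 1 h, 0 to 1 at Chronic 1 h, 0 to 1 for Chronic 1 h against Acute 1 h, 1 to 3 for Acute 24 h against Acute 1 h and 0 to 1 for Chronic 24 h against Chronic 1 h. It gave 2 to 5 at 2 Day, 2 to 3 at 3 Day, 3 to 5 at 4 Day, 1 to 4 at 5 Day, 0 to 0 for SKF82958, 0 to 3 for quinpirole and 0 to 1 for the dose difference at Acute 1 h. The shares of all genes passing in these fits are not given here, so these counts describe only how steady the member calls were. Except where given above, the cause of a change was not tested. With a pseudocount of 0.1 the 3 most similar genes were shared in 1 case for TENT5A and 0 for TENT5C and were the same for the other 8 members.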
